A study of Homo sapiens with 3 samples.

Results

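The genes described here are 10 members of the transcriptional response to low oxygen, chosen by name: the secreted factors STC2, VEGFA and ADM, the membrane enzyme CA9, the cell components P4HA1, BNIP3, ANKRD37 and NDRG1, the oxygen sensor EGLN3 and the transcription factor subunit HIF1A. They were chosen with earlier results of these data known. Each of the 10 symbols matched 1 Ensembl identifier among the 58333 rows of the table. Of these, 9 passed a filter at a mean of 10 normalized counts over all libraries and were tested together with all 20247 genes that passed it, while EGLN3 lay under the filter. The cells were Cal62, an established thyroid cancer line, kept in DMEM with 10% serum. They received by lipid transfection either siControl, a negative control siRNA, or siADAR1 #1 or siADAR1 #2, which are different siRNAs against ADAR, the gene of the RNA editing enzyme ADAR1. All 3 groups were thus transfected, and no label names a low-oxygen treatment of any group. Each group had 2 biological replicates of poly(A) RNA, which makes 6 libraries.

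Cells read oxygen through the alpha subunits of the hypoxia-inducible factors (HIF), encoded by HIF1A and EPAS1. In the presence of oxygen the EGLN prolyl hydroxylases mark these subunits, VHL binds them and they are degraded. When oxygen falls, the subunits persist, pair with ARNT and bind a short DNA core in the control regions of target genes for blood vessel growth, glucose use, pH control and collagen maturation. Because this switch acts on protein stability, the HIF1A transcript does not report HIF activity. Several of the targets, among them VEGFA and STC2, are also known to respond to other stress pathways such as the one that acts through the transcription factor ATF4.

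The depth and the identity of the libraries come before the results. The libraries held 30114840 to 50029763 reads on genes, and the lowest total was that of a siADAR1 #2 library. ADAR had 10906 and 11701 normalized counts in siControl, 1328 and 2246 with siADAR1 #1 and 1663 and 2928 with siADAR1 #2. This corresponded to a log2FC of -2.71 ± 0.30 (SE, n = 2 against 2, adjusted p = 0.00355, limma) with siADAR1 #1 and of -2.35 ± 0.30 (adjusted p = 0.00153) with siADAR1 #2. Of the 7 thyroid follicular cell markers checked, NKX2-1 had 0 reads in all 6 libraries, TG had 0 to 55 reads, and PAX8 had 2242 to 15557 reads. Of the 4 markers of this list that passed the filter, 0 were called with siADAR1 #1. With siADAR1 #2, PAX8 (log2FC -1.99, adjusted p = 0.00411) and FOXE1 (-1.21, 0.0231) fell, while TG (2.86, 0.226) and TSHR (0.47, 0.256) were not called. Of the 3 mesenchymal markers, VIM was called lower with siADAR1 #1 (log2FC -3.32, adjusted p = 0.00535) but not with siADAR1 #2 (-0.76, 0.259), FN1 was called lower with siADAR1 #2 (-1.82, 0.0164) but not with siADAR1 #1 (-0.99, 0.156), and CDH2 was called with neither (-0.26 and -0.08). Their summed normalized counts, made up mostly of VIM and FN1, ranged from 269905 to 281768 in siControl, from 78846 to 131133 with siADAR1 #1 and from 85759 to 152930 with siADAR1 #2. Among 5 epithelial markers, 0 were called with siADAR1 #1, whereas KRT18 fell (log2FC -0.85, adjusted p = 0.00276) and KRT19 rose (1.18, 0.000696) with siADAR1 #2. The macrophage marker CD68 rose with siADAR1 #2 (log2FC 1.80, adjusted p = 0.00975), with 225 to 1069 reads in the 6 libraries, and PTPRC, which marks white blood cells, had at most 5 reads. The part of these shifts in the results for the hypoxia-responsive genes was not tested.

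The DNA around the starts of these genes was read for the HIF core, since the members were chosen by name from the response to low oxygen. RefSeq promoter sequences (GRCh38.p14) of 250 bases before to 50 bases after the start were found for 8 of the 10 symbols, the exceptions being VEGFA and NDRG1. The bases before the start are given for the 4 genes with the largest log2FC with either siRNA, in either direction and whether called or not. They are ADM (chr11:10304823-10305072, plus strand), STC2 (chr5:173328415-173328664, minus strand), ANKRD37 (chr4:185396591-185396840, plus strand) and CA9 (chr9:35673678-35673927, plus strand). Each is written 5′ to 3′ on the strand of the gene, and capitals mark ACGTG or GCGTG or their reverse complements.
ADM: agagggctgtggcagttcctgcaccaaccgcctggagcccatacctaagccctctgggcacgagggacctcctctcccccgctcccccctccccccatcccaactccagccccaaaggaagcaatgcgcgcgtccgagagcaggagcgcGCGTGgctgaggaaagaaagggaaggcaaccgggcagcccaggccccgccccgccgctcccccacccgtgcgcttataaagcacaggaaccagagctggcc
STC2: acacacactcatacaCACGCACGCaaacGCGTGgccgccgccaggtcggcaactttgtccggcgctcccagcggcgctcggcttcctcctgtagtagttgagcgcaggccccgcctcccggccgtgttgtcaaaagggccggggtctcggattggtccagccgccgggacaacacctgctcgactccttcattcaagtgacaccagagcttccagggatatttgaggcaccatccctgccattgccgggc
ANKRD37: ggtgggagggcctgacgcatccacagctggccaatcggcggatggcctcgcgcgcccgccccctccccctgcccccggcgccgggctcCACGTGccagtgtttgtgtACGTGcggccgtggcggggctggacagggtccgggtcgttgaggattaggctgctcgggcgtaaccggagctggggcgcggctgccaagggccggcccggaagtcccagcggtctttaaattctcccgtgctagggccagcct
CA9: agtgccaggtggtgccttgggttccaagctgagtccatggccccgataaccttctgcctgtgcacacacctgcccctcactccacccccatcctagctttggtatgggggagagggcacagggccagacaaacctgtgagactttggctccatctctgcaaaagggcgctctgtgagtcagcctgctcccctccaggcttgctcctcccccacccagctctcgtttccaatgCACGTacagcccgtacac
ADM held 1 match to GCGTG on its own strand, 101 bases before the start. STC2 held 3 matches to GCGTG, all more than 220 bases before the start, of which a pair on the opposite strand overlapped by 1 base. ANKRD37 held 3 matches to ACGTG, and a pair of these were the 2 strands of a single palindrome CACGTG, the E-box that other factors such as MYC also bind. CA9 held 1 match to ACGTG on the opposite strand, 18 bases before the start.

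Among the other members, BNIP3 held 6 matches, 4 to GCGTG and 2 to ACGTG, which again formed a CACGTG. P4HA1 held 1 match, HIF1A held 1 match at the first of its 2 annotated starts and 0 at the second, and EGLN3 held 0. In all, 7 of the 8 genes had at least 1 match within the 300 bases, with HIF1A counted through the first of its 2 starts. The members were chosen as hypoxia-responsive genes, so this count is not independent evidence. The shares that follow are per promoter and not per gene. The same letters, in either form and on either strand, occurred in 48.4% of all 35116 promoters of this length. ACGTG occurred in 21.4%, GCGTG in 36.5% and CACGTG in 7.26%, each counted whether or not the others were present. Of all promoters, 23.1% held 2 or more matches, as did those of BNIP3, STC2 and ANKRD37 here. A CACGTG counts as a match on each strand. A match of this kind is a description of the letters and not a site shown to be bound.

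**Figure D1:**
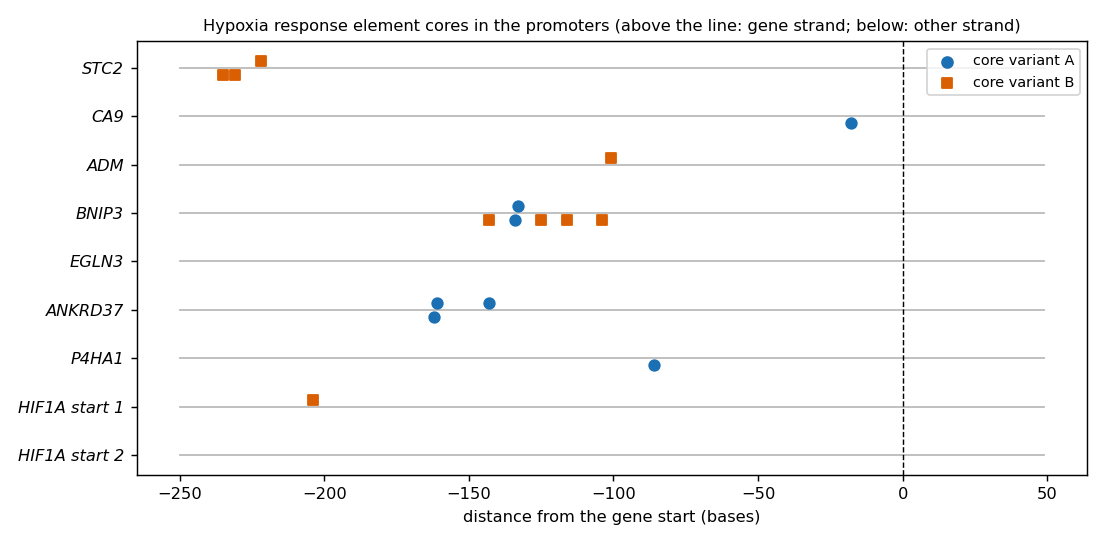
Position of each match to the HIF core in the promoters of 8 hypoxia-responsive genes, in bases from the gene start (dashed line), with variant A for ACGTG and variant B for GCGTG. The matches of CA9 and P4HA1 lie closest to the start, BNIP3 has the most (6), and EGLN3 has 0.

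The first comparison asked which of the 9 tested genes differed between siControl cells and cells with each ADAR1 siRNA. A gene counted as called when its adjusted p-value was below 0.05 and its log2FC was above 0.5 or below -0.5. With siADAR1 #1, 6 of the 9 genes were upregulated (STC2, ANKRD37, ADM, P4HA1, VEGFA and BNIP3) and 0 were downregulated. The same rule called 17.4% of all genes tested in this comparison, with 6.39% higher and 11.0% lower. The members were thus called more often than all genes, and in the less common direction. Since they were chosen with earlier results of these data known, this excess is not independent evidence. No member fell at an unadjusted p under 0.05 either (0 genes with limma and 0 with limma's voom on the recovered reads). With siADAR1 #2, 3 of the 9 genes were upregulated (ADM, STC2 and VEGFA) and 1, NDRG1, was downregulated, against a background of 27.5% of all genes called, 11.6% higher and 16.0% lower. The median log2FC over the 9 genes was 0.73 with siADAR1 #1 and 0.35 with siADAR1 #2, while over all genes tested it was -0.03 and -0.02. Both comparisons share the siControl libraries.

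ADM, STC2 and VEGFA, all secreted proteins, were upregulated with both siRNAs, against 1.86% of all genes. In 5 of the 9 genes, ADM, ANKRD37, BNIP3, STC2 and VEGFA, all 4 siADAR1 libraries lay above both siControl libraries, which was the case for 12.0% of all genes. No member had all 4 siADAR1 libraries below both siControl libraries, an order seen in 17.0% of all genes. Without either siControl library or without siADAR1 #1 replicate 1, fewer of all genes tested were also called with siADAR1 #1. A drop in these fits is thus not particular to the members. The count of members with siADAR1 #1 rested on few libraries. It was 1 (STC2) without siControl replicate 1, 1 (STC2) without siControl replicate 2, and 2 (STC2 and ADM) without siADAR1 #1 replicate 1. With 1 library left out at a time, the count with siADAR1 #2 lay between 3 and 4. In bulk libraries, a change in the RNA per cell and a change in the share of cells that express a gene cannot be told apart.

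**Figure D2:**
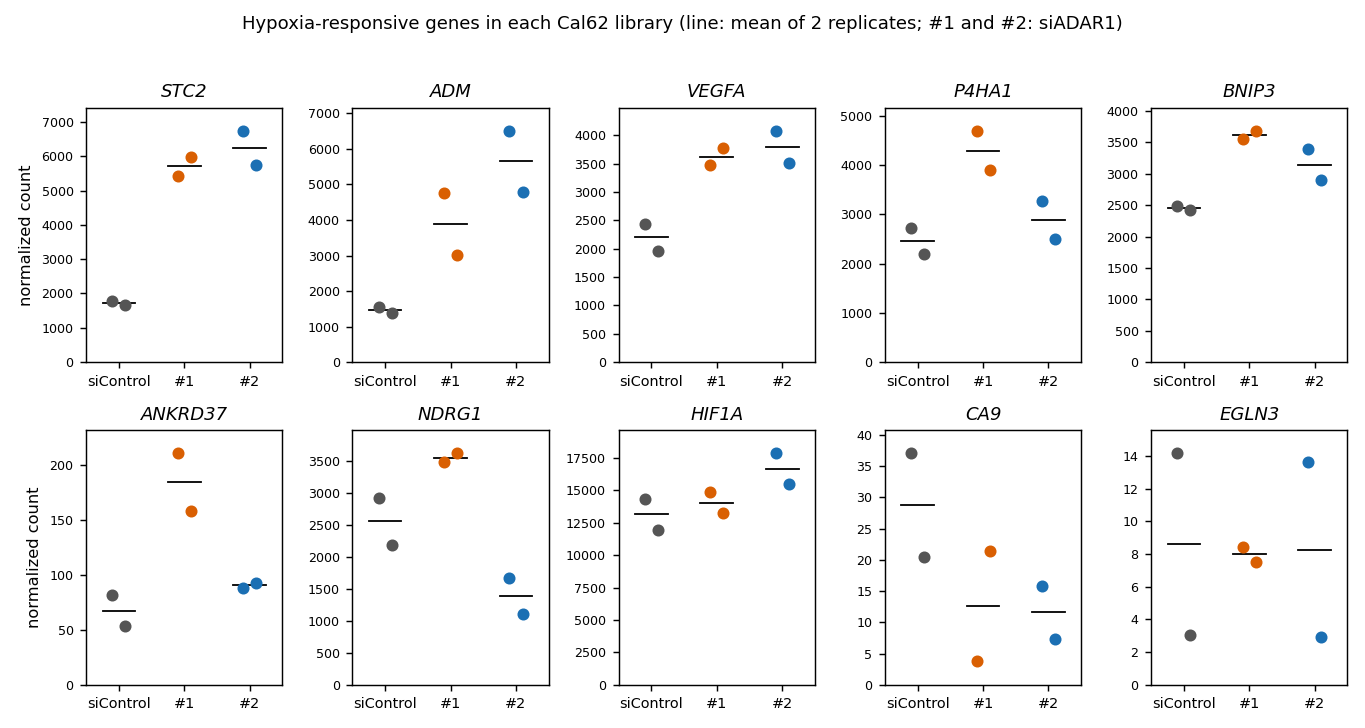
Normalized counts of the 10 hypoxia-responsive genes in the 6 libraries, with 1 point per biological replicate, the mean of 2 replicates as a line and each vertical axis starting at 0. STC2, ADM and VEGFA are above siControl in all 4 siADAR1 libraries, NDRG1 is above it with siADAR1 #1 and below it with siADAR1 #2, and CA9 and EGLN3 have few counts throughout.

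STC2 (stanniocalcin 2), a secreted glycoprotein that is induced by hypoxia and by stress of the endoplasmic reticulum, showed the steadiest rise. It had 1769.6 and 1651 normalized counts in siControl, 5438 and 5982 with siADAR1 #1 and 6747 and 5752 with siADAR1 #2. The groups did not overlap, and the lowest siADAR1 library was well above the highest siControl library. STC2 was 3.34-fold higher with siADAR1 #1 (log2FC 1.74 ± 0.13, SE, n = 2 against 2, adjusted p = 0.00222) and 3.65-fold higher with siADAR1 #2 (log2FC 1.86 ± 0.13, adjusted p = 0.000346). Between the siRNAs its log2FC was 0.13, with a 95% confidence interval of -0.17 to 0.42 and an adjusted p of 0.474. It was the 1 member called with both siRNAs in all alternatives tried, including each library left out. The gene lies at chr5:173314723-173328447 (GRCh38, minus strand).

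ADM (adrenomedullin), a peptide hormone that widens blood vessels, had 1543 and 1369.8 normalized counts in siControl, 4763 and 3012 with siADAR1 #1 and 6516 and 4797 with siADAR1 #2. All siADAR1 libraries were above siControl. Both siADAR1 #2 libraries were above both siADAR1 #1 libraries, but the nearest pair, 4797 and 4763, was almost equal. ADM was 2.67-fold higher with siADAR1 #1 (log2FC 1.38 ± 0.23, adjusted p = 0.00943) and 3.88-fold higher with siADAR1 #2 (log2FC 1.94 ± 0.23, adjusted p = 0.00119). The difference between the siRNAs, a log2FC of 0.56, was not called (adjusted p = 0.0983), but without siADAR1 #1 replicate 1 it was 0.89 and was called (adjusted p = 0.0218). The call with siADAR1 #1 was lost without siControl replicate 1 (adjusted p = 0.0678) and without siControl replicate 2 (adjusted p = 0.0715).

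VEGFA, the main growth factor for blood vessel endothelium, had 2438 and 1960.4 normalized counts in siControl, 3472 and 3777 with siADAR1 #1 and 4084 and 3520 with siADAR1 #2. Its rise was smaller than that of STC2 or ADM, and its siADAR1 libraries again did not overlap with siControl. The log2FC was 0.73 ± 0.15 (adjusted p = 0.0161) with siADAR1 #1 and 0.79 ± 0.15 (adjusted p = 0.00622) with siADAR1 #2, that is 1.65-fold and 1.73-fold. The interval of the difference between the siRNAs ran from -0.28 to 0.41 on the log2 scale. The call with siADAR1 #1 was lost without siControl replicate 1 (adjusted p = 0.0562), without siControl replicate 2 (0.0885) and without siADAR1 #1 replicate 1 (0.0554). The call with siADAR1 #2 was lost without siADAR1 #2 replicate 1 (adjusted p = 0.0523).

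P4HA1, BNIP3 and ANKRD37 act inside the cell and were called with siADAR1 #1 but not with siADAR1 #2. P4HA1, the catalytic subunit of the prolyl hydroxylase that matures collagen, had 2719 and 2189.9 normalized counts in siControl, 4699 and 3894 with siADAR1 #1 and 3263 and 2490.1 with siADAR1 #2. Both siADAR1 #1 libraries lay above all others, and the siADAR1 #2 libraries overlapped with siControl. The log2FC was 0.81 ± 0.18 (adjusted p = 0.0212) with siADAR1 #1 and 0.22 ± 0.18 (adjusted p = 0.396) with siADAR1 #2. The siRNAs differed from each other by -0.59 (adjusted p = 0.0370). The call with siADAR1 #1 was lost without either siControl library (adjusted p = 0.0728 and 0.125 without replicates 1 and 2) and without siADAR1 #1 replicate 1 (0.116). The difference between the siRNAs was not called without siADAR1 #1 replicate 1 (adjusted p = 0.169) or without siADAR1 #2 replicate 2 (0.196).

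ANKRD37, a small ankyrin repeat protein and a direct HIF target, was expressed at a lower level, with 81.7 and 53.0 normalized counts in siControl, 210.4 and 158 with siADAR1 #1 and 88.4 and 92.3 with siADAR1 #2. The siADAR1 #1 libraries were clearly the highest, and the siADAR1 #2 libraries lay just above the higher siControl library. ANKRD37 was 2.74-fold higher with siADAR1 #1 (log2FC 1.44 ± 0.29, adjusted p = 0.0158), while the interval with siADAR1 #2 ran from -0.23 to 1.11 on the log2 scale. The difference between the siRNAs was -0.99 (adjusted p = 0.0299). Its call with siADAR1 #1 was lost without siControl replicate 1 (adjusted p = 0.0562), siControl replicate 2 (0.0865) or siADAR1 #1 replicate 1 (0.0953). The difference between the siRNAs was lost without siADAR1 #1 replicate 1 (adjusted p = 0.153), siADAR1 #2 replicate 1 (0.113) or siADAR1 #2 replicate 2 (0.0894). ANKRD37 shares 909 of its 2253 exonic bases (40.3%) with UFSP2 on the opposite strand, and whether the counting used strand is not given in the sources used here. UFSP2 moved the other way, with 927 and 652 reads in siControl, 413 and 402 with siADAR1 #1 and 880 and 645 with siADAR1 #2, and it fell with siADAR1 #1 (log2FC -0.89, adjusted p = 0.0341).

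BNIP3, a mitochondrial protein that marks mitochondria for autophagy, had 2486 and 2421 normalized counts in siControl, 3558 and 3688 with siADAR1 #1 and 3389 and 2900.2 with siADAR1 #2. All siADAR1 libraries were higher than siControl by a modest margin. The log2FC was 0.56 ± 0.12 (adjusted p = 0.0197) with siADAR1 #1 and 0.35 ± 0.12 (adjusted p = 0.0646) with siADAR1 #2, and the interval of the difference between the siRNAs ran from -0.49 to 0.08. The call with siADAR1 #1 was lost when any 1 of the 4 libraries compared was left out, with adjusted p-values of 0.0556 without siADAR1 #1 replicate 2, 0.0730 without siADAR1 #1 replicate 1, 0.0949 without siControl replicate 2 and 0.0958 without siControl replicate 1. With siADAR1 #2, BNIP3 was called when the libraries were quantile-normalized (log2FC 0.51, adjusted p = 0.0133). The genome annotation holds 44 processed or other pseudogenes named after BNIP3, whose reads together came to at most 4.93% of those of BNIP3.

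NDRG1, a stress-responsive protein linked to differentiation and to restraint of metastasis, moved apart with the siRNAs. It had 2935 and 2187 normalized counts in siControl, 3495 and 3625 with siADAR1 #1 and 1670.3 and 1103 with siADAR1 #2. Both siADAR1 #1 libraries were above and both siADAR1 #2 libraries below the siControl libraries. NDRG1 fell to 54.1% of siControl with siADAR1 #2 (log2FC -0.90 ± 0.22, adjusted p = 0.0182), and its log2FC with siADAR1 #1 was 0.49 ± 0.22 (adjusted p = 0.164). The siRNAs differed by -1.39 ± 0.22 (adjusted p = 0.00242), a call that held in all alternatives, with adjusted p-values of at most 0.0194. The fall with siADAR1 #2 was not called without siControl replicate 1 (log2FC -0.69, adjusted p = 0.130) or without siADAR1 #2 replicate 2 (log2FC -0.60, adjusted p = 0.0821).

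Between the siRNAs, 3 of the 9 genes were called (NDRG1, ANKRD37 and P4HA1), all lower with siADAR1 #2, where the rule called 33.7% of all genes and placed 16.5% lower. The median log2FC of the 9 genes was 0.07 in this comparison. The count was 1 (NDRG1) without siADAR1 #2 replicate 2.

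**Figure D3:**
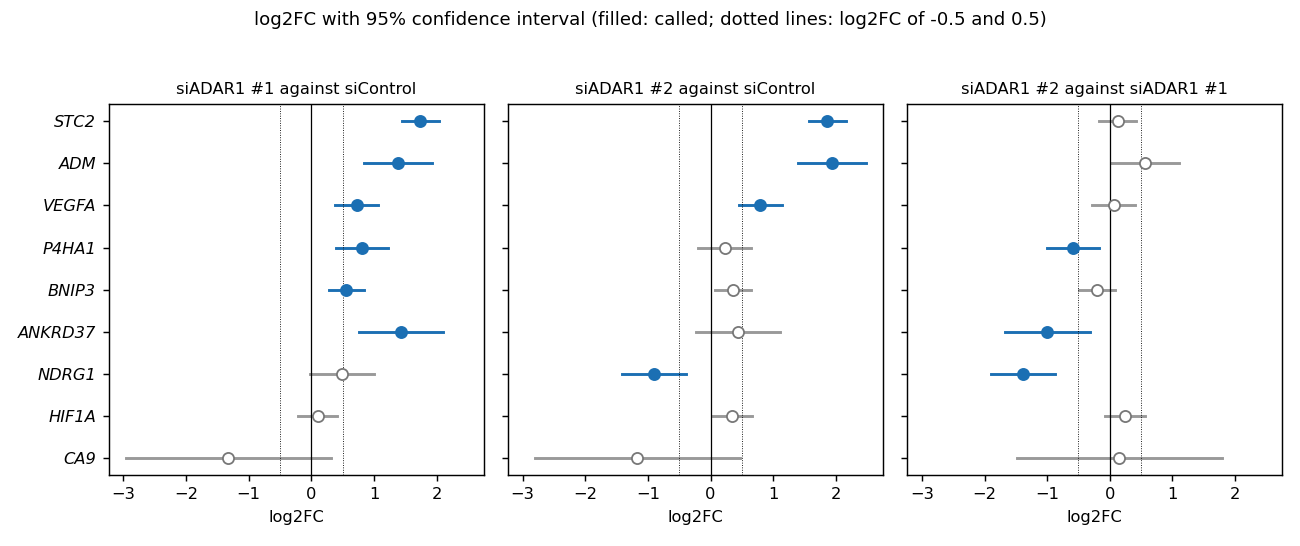
log2FC (points) with 95% confidence intervals (lines) of the 9 genes tested, in the comparisons of each siRNA with siControl and of the siRNAs with each other, each with 2 libraries per group. Filled points passed both thresholds. STC2, ADM and VEGFA lie right of 0.5 with both siRNAs, NDRG1 lies left of -0.5 with siADAR1 #2, and the intervals of CA9 are the widest.

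HIF1A, the alpha subunit of HIF-1, was the most abundant transcript of the group by TPM and was not called with either siRNA. It had 14362.5 and 11907 normalized counts in siControl, 14868 and 13222 with siADAR1 #1 and 17835 and 15472 with siADAR1 #2. The siADAR1 #1 libraries overlapped with siControl, and both siADAR1 #2 libraries lay above. The log2FC was 0.10 with siADAR1 #1 (95% confidence interval -0.21 to 0.41, adjusted p = 0.655) and 0.35 with siADAR1 #2 (0.03 to 0.66, adjusted p = 0.0926), so a rise of more than 0.66 lay outside the interval of either siRNA. The sign with siADAR1 #1 turned without siControl replicate 2 (log2FC -0.03). With siADAR1 #2, HIF1A was called when the libraries were quantile-normalized (log2FC 0.51, adjusted p = 0.0124). HIF1A-AS3 is a transcript of the opposite strand that shares 299 of 5151 exonic bases (5.80%) with HIF1A. It had only 4 and 5 reads in siControl, 12 and 9 with siADAR1 #1 and 36 and 12 with siADAR1 #2. It was called higher with siADAR1 #2 (log2FC 2.07, adjusted p = 0.0160, limma) but not with siADAR1 #1 (0.96, 0.215).

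CA9 (carbonic anhydrase IX), a cell surface enzyme that controls pH and is widely used as a marker of hypoxic tumour tissue, was barely expressed. It had 34 and 20 reads in siControl, 4 and 17 with siADAR1 #1 and 14 and 5 with siADAR1 #2, which is 37.0 and 20.4, 3.74 and 21.4, and 15.9 and 7.32 normalized counts. The groups overlapped with siADAR1 #1, and both siADAR1 #2 libraries lay below siControl. The log2FC was -1.33 with siADAR1 #1 (interval -2.96 to 0.31, adjusted p = 0.234) and -1.17 with siADAR1 #2 (interval -2.81 to 0.46, adjusted p = 0.252), so a change of either sign was within the error. A gene with 3 reads stood at 2.81 to 4.39 normalized counts, so 1 siADAR1 #1 library was close to that limit. CA9 shares 571 of its 1598 exonic bases (35.7%) with ARHGEF39 on the opposite strand, which had 311 to 792 reads, so some of the few CA9 reads could not be assigned with certainty.

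EGLN3, a prolyl hydroxylase that is itself a HIF target and feeds back on the alpha subunits, was near the detection limit. It had 13 and 3 reads in siControl, 9 and 6 with siADAR1 #1 and 12 and 2 with siADAR1 #2, or 2.93 to 14.2 normalized counts. The groups overlapped and no difference was detectable at this depth.

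On a scale that allows genes to be compared, reads per exon length scaled to the same total in each library (TPM), the order of the levels in siControl ran from HIF1A (182 ± 5.46 TPM, SD, n = 2) over P4HA1 (56.4 ± 0.54) to ADM (44.8 ± 3.51) and BNIP3 (43.6 ± 6.25), which did not differ beyond their spread. STC2 (24.2 ± 2.75), NDRG1 (15.1 ± 0.69), VEGFA (10.8 ± 0.091), ANKRD37 (2.10 ± 0.30), CA9 (1.25 ± 0.32) and EGLN3 (0.078 ± 0.063) followed. Exon lengths were the union of all annotated exons, which lowers the TPM of genes with long, rarely used exons. In both siADAR1 #1 libraries ADM (157 and 95.9 TPM) ranked directly after HIF1A and P4HA1 (116 and 93.2 TPM) came next, although their ranges overlapped. In siADAR1 #2, ADM again ranked directly after HIF1A in both libraries (219.6 and 173 TPM). There STC2 came next (104 and 95.1 TPM) and P4HA1 stood behind it (82.7 and 67.4 TPM). VEGFA and NDRG1 changed places there, with 22.2 and 20.4 TPM for VEGFA and 10.9 and 7.69 TPM for NDRG1.

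With the 4 siADAR1 libraries taken as 1 group against siControl, 0 of the 9 genes were called by limma, and 0% of all genes tested. At an unadjusted p under 0.05, 4 of the 9 genes were higher and 0 lower with limma, and 6 were higher with voom, which called 0 members after adjustment. Of all 20247 genes, 2869 passed this unadjusted p with limma and 2970 with voom, in either direction. STC2 had a log2FC of 1.80 ± 0.16 (adjusted p = 0.0881), ADM of 1.66 ± 0.30 (adjusted p = 0.135) and VEGFA of 0.76 ± 0.17 (adjusted p = 0.152). This design counts the difference between the siRNAs as spread, and 4 members were called (STC2, ADM, VEGFA and ANKRD37) for the mean of both log2FC values in the fit with 3 groups, all of them higher, while 17.8% of all genes were called and 6.27% called higher.

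The other genes of the pathway came from lists written for this purpose. Of 17 regulators of HIF, which include oxygen sensors, subunits and coactivators, 0 were upregulated and 3 downregulated with siADAR1 #1, with 2 higher and 5 lower at an unadjusted p under 0.05. The 3 were ARNT, the partner subunit of HIF1A (log2FC -0.62, adjusted p = 0.0172), EGLN2, an oxygen sensor (-0.60, 0.0372), and HIF1AN, which blocks the HIF transactivation domain (-0.55, 0.0396). With voom, and with limma's eBayes without a trend, 0 of the regulators were called lower with siADAR1 #1. With siADAR1 #2, 3 were upregulated and 0 downregulated, with 6 higher and 1 lower at an unadjusted p under 0.05. Of all 20247 genes, 6720 passed this unadjusted p with siADAR1 #1 and 8428 with siADAR1 #2, in either direction. The upregulated genes were CITED2, which competes with HIF for its coactivators (log2FC 4.10, adjusted p = 0.000346), the coactivator EP300 (0.66, 0.00534) and VHL (0.57, 0.00847). EPAS1, which encodes the other main alpha subunit and was chosen after its values were seen, had 1136 and 516 normalized counts in siControl, 835 and 322 with siADAR1 #1 and 1836 and 1412 with siADAR1 #2. Its siControl replicates differed by more than 2-fold, and its log2FC with siADAR1 #2 was 1.07 (adjusted p = 0.138), a value whose call depended on whether the replicate numbers entered the fit. The median log2FC of the list was -0.06 and 0.06 with the siRNAs. Against 17.4% and 27.5% of all genes called with siADAR1 #1 and siADAR1 #2, the 3 calls among 17 genes were near the background with the first siRNA and below it with the second.

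Of 47 other hypoxia targets outside glycolysis, 45 were tested, and 10 rose and 3 fell with siADAR1 #1 while 15 rose and 11 fell with siADAR1 #2. Over all genes, 6.39% rose and 11.0% fell with siADAR1 #1, and 11.6% rose and 16.0% fell with siADAR1 #2. The 11 fallers numbered 5 without siControl replicate 1 and 7 without either siADAR1 #2 library, and the 3 fallers with siADAR1 #1 numbered 1 without siControl replicate 1 and 6 without siADAR1 #1 replicate 2. The median log2FC of the list was 0.16 and 0.11. Risers and fallers alike are hypoxia targets by the choice of the list. WSB1, a ubiquitin ligase component, was upregulated with both (log2FC 1.53 and 1.69, adjusted p = 0.00280 and 0.000452), as were CCNG2, a cyclin of arrested cells (0.61 and 1.36), DDIT4, an inhibitor of mTOR signalling (2.35 and 1.96), VLDLR, a lipoprotein receptor (2.14 and 1.96), and MXI1, an antagonist of MYC (1.20 and 0.58). LOXL2, a collagen crosslinking enzyme, was downregulated with both (log2FC -1.30 and -1.66). HMOX1 (heme oxygenase 1), BHLHE41 (a clock repressor) and AK4 (a mitochondrial adenylate kinase) were called in opposite directions, with log2FC values of -0.63, -2.15 and 0.71 with siADAR1 #1 and of 2.03, 1.26 and -0.62 with siADAR1 #2. STC1, the paralog of STC2, was chosen after its values were seen, and it fell with siADAR1 #2 (log2FC -2.40, adjusted p = 0.00684), whereas its log2FC with siADAR1 #1 was 1.24 (adjusted p = 0.101).

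Of 22 genes of glycolysis and its control, 1 rose and 2 fell with siADAR1 #1, and 0 rose and 8 fell with siADAR1 #2. The 3 calls with siADAR1 #1 were a smaller share than the 17.4% of all genes called, and the 8 fallers with siADAR1 #2 stood against 16.0% of all genes. With 1 library left out, the 2 fallers with siADAR1 #1 became 0 (without either siControl library), 1 (without siADAR1 #1 replicate 1) or 4 (without siADAR1 #1 replicate 2), and the 8 with siADAR1 #2 numbered 6 to 8. The 1 riser with siADAR1 #1 was lost without either siControl library or without siADAR1 #1 replicate 1, and with siADAR1 #2 there was 1 riser without siControl replicate 2. At an unadjusted p under 0.05, 1 was higher and 9 were lower with siADAR1 #2, where 8428 of all 20247 genes passed in either direction. The largest falls were those of ALDOA (aldolase A, log2FC -2.91, adjusted p = 0.000435) and LDHA (lactate dehydrogenase A, -2.43, 0.000458), and GAPDH fell by 1.01 on the log2 scale (adjusted p = 0.000929). With siADAR1 #1 the log2FC values of the same enzymes were -0.45, -0.15 and -0.11, none of them called. PDK1, which holds pyruvate back from the mitochondria, was called higher with siADAR1 #1 (log2FC 0.84) and lower with siADAR1 #2 (-0.59), and the 2 that fell with siADAR1 #1 were PFKL (-1.45) and ENO1 (-0.73). The median log2FC of the list was -0.18 and -0.24, below that of all genes, whereas the median of the 9 hypoxia-responsive genes was above it.

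Of 14 targets of ATF4, 11 rose and 1 fell with siADAR1 #1, and 9 rose and 1 fell with siADAR1 #2, with medians of 1.20 in both, while 6.39% and 11.6% of all genes rose and 11.0% and 16.0% fell. TRIB3, a stress pseudokinase, rose with both (log2FC 1.36 and 1.35, adjusted p = 0.00268 and 0.000482), as did ASNS, the asparagine synthetase (1.55 and 1.47), and SLC7A11, the cystine transporter (1.20 and 1.70). The transcription factor CEBPB fell with siADAR1 #1 (log2FC -0.98) and ATF5 with siADAR1 #2 (-1.42). TRIB3, CHAC1 and DDIT4 of this list had been picked by the study from these cells, so their direction is not independent evidence, and DDIT4 and VLDLR stand in 2 of the lists.

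**Figure D4:**
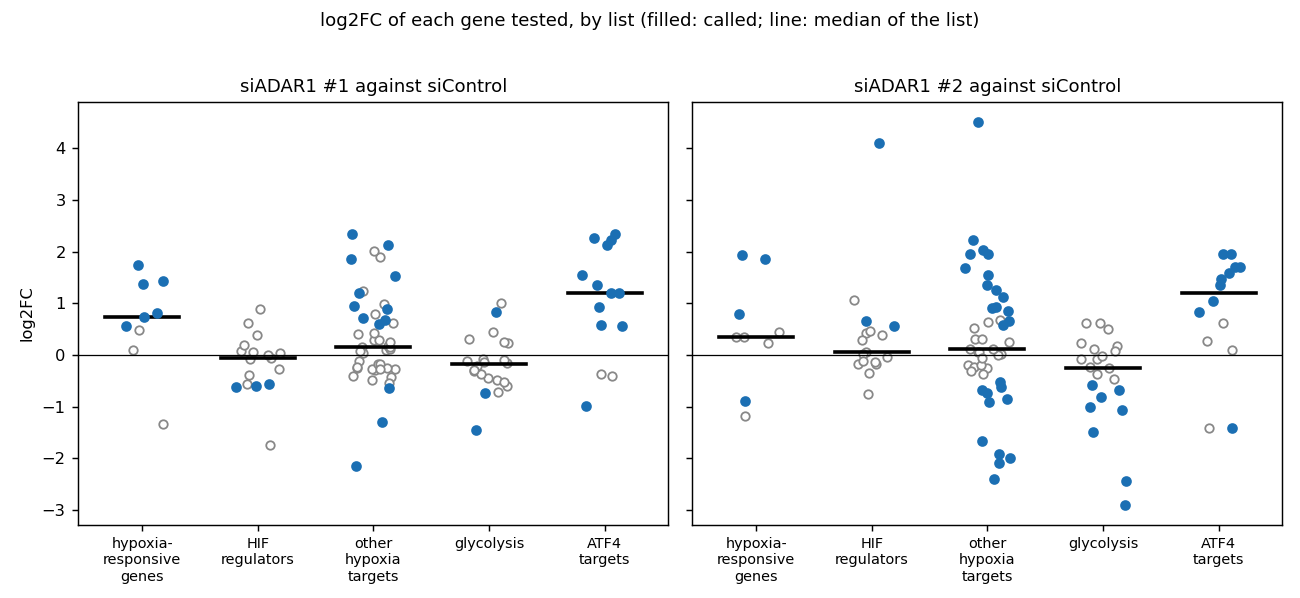
log2FC of each gene tested in the hypoxia-responsive group and in 4 lists, for each siRNA against siControl, with 1 point per gene, filled points past both thresholds and the median of each list as a line. The medians of the hypoxia-responsive genes (0.73 and 0.35), the other hypoxia targets (0.16 and 0.11) and the ATF4 targets (1.20 and 1.20) lie above 0. Those of glycolysis (-0.18 and -0.24) lie below, and those of the HIF regulators (-0.06 and 0.06) on either side.

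The calls in the lists with siADAR1 #1 depended on single libraries more than those with siADAR1 #2. The same held for the calls over all genes tested, so this is not particular to the lists. Of 20 named genes outside the hypoxia-responsive group that were called with siADAR1 #1, 12 lost the call in at least 1 fit with a library left out, while 5 of 22 did so with siADAR1 #2. Those that kept it with siADAR1 #1 were ADAR, WSB1, DDIT4, MXI1, VLDLR, BHLHE41, TRIB3 and ASNS. With siADAR1 #2 the calls of VHL, MXI1, AK4, PDK1 and STC1 were lost. The 10 risers with siADAR1 #1 among the other hypoxia targets numbered 4 without siControl replicate 1 and 6 without siControl replicate 2 or without siADAR1 #1 replicate 1, and the 11 among the ATF4 targets numbered 6 without siControl replicate 1. The 3 fallers among the HIF regulators numbered 0 without siControl replicate 1 or without siADAR1 #1 replicate 1 and 1 without siControl replicate 2.

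Over all genes tested, among the 3 whose log2 values followed the mean standardized profile of the 9 hypoxia-responsive genes most closely over the 6 libraries were SLC22A15, a member of the organic ion transporter family (Pearson r of 0.997), and RAMAC, a cofactor of mRNA cap methylation (0.990). These are descriptions over 6 libraries in 3 groups. SLC22A15 had log2 values of 6.50 and 5.85 in siControl, 7.29 and 7.40 with siADAR1 #1 and 7.27 and 6.61 with siADAR1 #2. Among the members themselves, BNIP3 (0.957), VEGFA (0.918) and P4HA1 (0.888) lay closest to the mean profile. HIF1A (0.59) and NDRG1 (0.27) lay further from it, and CA9 (-0.41) ran against it. Each member is itself part of this mean, which raises its r, so these values are not comparable with those of the genes outside the group.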

How the data were processed

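Poly(A) RNA of 6 Cal62 libraries, 2 biological replicates each of siControl, siADAR1 #1 and siADAR1 #2, was measured. The labels give 1 sample per transfection, and the paired columns of the table were taken as the replicates of the study's methods. The authors trimmed the reads, counted them per gene (GRCh38; featureCounts and Salmon appear in the submitters' processing notes) and normalized with DESeq2. The deposited values are on a log2 scale, after a variance-stabilizing transformation by the authors. Inverting it gave whole reads for 100% of the values (tolerance 0.1), from which normalized counts and TPM were computed. Symbols and exon lengths came from GENCODE (57830 identifiers matched, 503 did not), and promoters from RefSeq.

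The log2 values of the 20247 genes with a mean of at least 10 normalized counts were tested in R 4.3.3 with limma 3.58.1 (lmFit, eBayes with trend, 3 groups, two-sided, Benjamini-Hochberg adjustment over all genes tested), a change being called at an adjusted p under 0.05 and a log2FC beyond 0.5. A fold is the ratio of mean normalized counts. Sets of genes were described by counts and medians. The steps were tested on simulated data. Named are the 10 members, ADAR, at most 3 genes per list with the smallest adjusted p with either siRNA, genes in counts of 5 or fewer, and the 3 genes most like the members' mean profile, of which 1 is not reported here. The members and lists were chosen with earlier results of these data known. With 2 libraries per group, p-values measure only the spread between these libraries, and limits from 3 reads cover counting error only.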

Additional observations from a re-analysis of the deposited data

Results flagged for a closer look

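The siRNAs against ADAR differed from each other in 3 hypoxia-responsive genes by the test of the difference itself (limma, 2 libraries against 2), a share of the 9 tested that was no larger than the 33.7% of all genes called in this comparison. NDRG1 had a log2FC of -1.39 for siADAR1 #2 against siADAR1 #1, ANKRD37 of -0.99 and P4HA1 of -0.59. NDRG1 was above siControl in both libraries of siADAR1 #1 and below it in both libraries of siADAR1 #2. The difference for NDRG1 was called in all 17 alternatives, that for ANKRD37 in 13 and that for P4HA1 in 11 of them. What sets the siRNAs apart was not tested.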

How the results depend on the processing

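Of 617 alternative values of the log2FC of single hypoxia-responsive genes, 561 kept their direction and side of the threshold, 34 lost and 15 gained a call, and 7 turned sign. With siADAR1 #1 the count of 6 called members became 2 with eBayes without a trend and lay between 1 and 6 with 1 library left out. With siADAR1 #2 the count of 4 lay between 3 and 6, with 6 when the libraries were quantile-normalized. Between the siRNAs the count of 3 became 1 without a filter on low values and lay between 1 and 3 with 1 library left out. With both siRNAs as 1 group, the count of 0 became 4 for the average of the siRNA changes and 5 for this average with the replicate block, both chosen after an earlier look at these data or after seeing the values.

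The values that turned sign were all within the error, and the cause was not tested. With 1 library left out, HIF1A ranged from -0.035 (without siControl replicate 2) to 0.24 with siADAR1 #1. Between the siRNAs, VEGFA ranged from -0.041 (without siADAR1 #2 replicate 1) to 0.17, with -0.039 for median-centred libraries, and CA9 from -0.84 (without siADAR1 #1 replicate 1) to 1.15, with -0.30 without siADAR1 #2 replicate 1. In the pooled comparison NDRG1 ranged from -0.44 to 0.13 (without siADAR1 #2 replicate 2), with 0.0076 without siControl replicate 1. Of the other named genes, with siADAR1 #1 VHL ranged from -0.097 (without siControl replicate 2) to 0.11, with -0.028 without siADAR1 #1 replicate 2, EPAS1 from -1.25 to 0.12 (without siADAR1 #1 replicate 2), with 0.0067 without siControl replicate 1, and GAPDH from -0.24 to 0.018 (without siControl replicate 1), with 0.032 for median-centred libraries, while LDHA was at 0.035 with quantile-normalized libraries. With siADAR1 #2, HIF1AN ranged from -0.38 to 0.041 (without siControl replicate 1), with 0.00099 for voom.

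The replicate numbers were tried as a block. The differences between replicates 2 and 1 correlated at 0.111, 0.130 and 0.150 between the groups, over 20247 genes and 2 pairs per comparison, and no label says what the numbers share. With the replicate block, 6 members were called with siADAR1 #1, 4 with siADAR1 #2 and 4 between the siRNAs, where ADM was added (adjusted p = 0.0152). Of the other named genes, the block added the calls of EPAS1 with siADAR1 #2 (log2FC 1.07, adjusted p = 0.00956), CEBPB with siADAR1 #2 (0.63, 0.0214) and CITED2 with siADAR1 #1 (0.89, 0.00759) and removed none.

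Scaling moved the median of all genes. Median-centring changed it from -0.03 to 0.11 with siADAR1 #1 and the split of calls over all genes from 1293 higher and 2225 lower to 1938 and 1723, while 6 members stayed called higher. Voom changed it from -0.02 to 0.16 with siADAR1 #2 and the split from 2339 and 3234 to 3099 and 2137, and called HIF1A and BNIP3 higher but not NDRG1. The count of all genes called with siADAR1 #1, 3518, fell to 312 without siControl replicate 1, 1165 without siControl replicate 2, 1291 without siADAR1 #1 replicate 1 and 1478 with eBayes without a trend. Depth limits what can be said of CA9 and EGLN3, with at most 34 and 13 reads per library.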
